A study of Vitis vinifera with 36 samples.

Results

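The stilbene synthase tandem array on grapevine chromosome 16 was followed as the run of loci from VIT_216s0100g00750 to VIT_216s0100g01200, taken in order of locus number, whatever their level. Of 28119 genes with reads in at least 1 library, 33 fell in that run, the last of them VIT_216s0100g01170, and 30 had enough reads to be tested. The files give no gene names: that these loci encode stilbene synthases is recalled from published grape gene catalogues and was not checked against an annotation. The remaining 3 members, VIT_216s0100g00760, VIT_216s0100g01060 and VIT_216s0100g01080, never had more than 3 estimated reads in a library and are counted only in sums.

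Stilbene synthase joins p-coumaroyl-CoA with malonyl-CoA to make resveratrol, the stilbene from which grapevine builds its other stilbenes. Chalcone synthase, the entry enzyme of flavonoid and anthocyanin synthesis, uses the same substrates. In grapevine the enzyme is encoded by a large tandem family whose genes are known to be induced by infection, wounding and ultraviolet light and to rise in ripening berries.

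The berries came from the cultivars Victoria and Muscat Superior, grown under rain shelter in southern China in 2014 on vines 7 years old. The same vines carried a summer crop and then a winter crop, and both crops were pruned and forced with hydrogen cyanamide. Each crop was sampled at E-L 35 (onset of veraison, when berries soften), E-L 36 (sugar at an intermediate level) and E-L 38 (ripe, at harvest), which gave 12 groups of 3 biological replicates and 36 libraries. RNA was taken from deseeded whole pericarp of 50 berries per replicate, so fewer cells of a type and less RNA per cell cannot be told apart, and the tissue label was not checked against markers because identifiers could not be paired with names. Crop, season and sampling date go together in this design and cannot be told apart.

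Total estimated counts ran from 5624449 to 18606068 per library. Because the copies resemble each other, reads were divided between them: at most 7.4% of the members listed in a library had a whole-number count (within 0.011), against 73.2% to 78.9% of the other genes. A single copy's value is therefore an apportioned estimate, and the sum over the array is the firmer quantity. That sum was within 0.2 of a whole number in 23 of the 36 libraries. In the others some reads were thus also divided with loci outside the array, and which loci was not tested. Some libraries stood apart from their labels. Replicate 1 of Victoria summer E-L 36 correlated best with a Victoria summer E-L 38 library (r = 0.985 across genes, against 0.951 to 0.952 with its own group), replicate 1 of Victoria summer E-L 38 was nearest to an E-L 36 library (r = 0.980), and replicate 1 of Muscat Superior summer E-L 36 was nearest to an E-L 38 library (r = 0.982). In 8 of the 36 replicate pairs, all in winter groups, the chi-square of the counts per degree of freedom was below 2 (1.45 to 1.89, against 2.42 or more in the other pairs), so these replicates differed little more than sampling noise. They were kept as separate libraries, and results that changed when they were summed are given as such. Every pair was below 2 in Victoria winter E-L 36 and in Muscat Superior winter E-L 35, so summing left 1 library in each. Calls that use either group rest on near-identical replicates there, and no count or p from the summed fit is given for them.

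The summed array was highest in Victoria winter berries at E-L 35, where the 3 replicates had 730, 553 and 2505 CPM (counts scaled to a common library size with TMM factors). Replicate 3 stood far above the other replicates, and 29 of the 30 tested copies had their highest level of all 36 libraries in it. Muscat Superior winter berries at E-L 36 came next by mean level, with 683, 639 and 299 CPM. Both cultivars were lowest in summer at E-L 35, with 29.7, 19.9 and 24.4 CPM in Victoria and 14.0, 15.1 and 12.5 CPM in Muscat Superior. The groups thus ran from 13.8 ± 1.30 to 1263 ± 1080 CPM (mean ± SD, n = 3). By mean level the winter maximum was at E-L 35 in Victoria and at E-L 36 in Muscat Superior, although the lowest Muscat Superior library at E-L 36 (299 CPM) lay below the highest at E-L 38 (339 CPM).

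**Figure D1:**
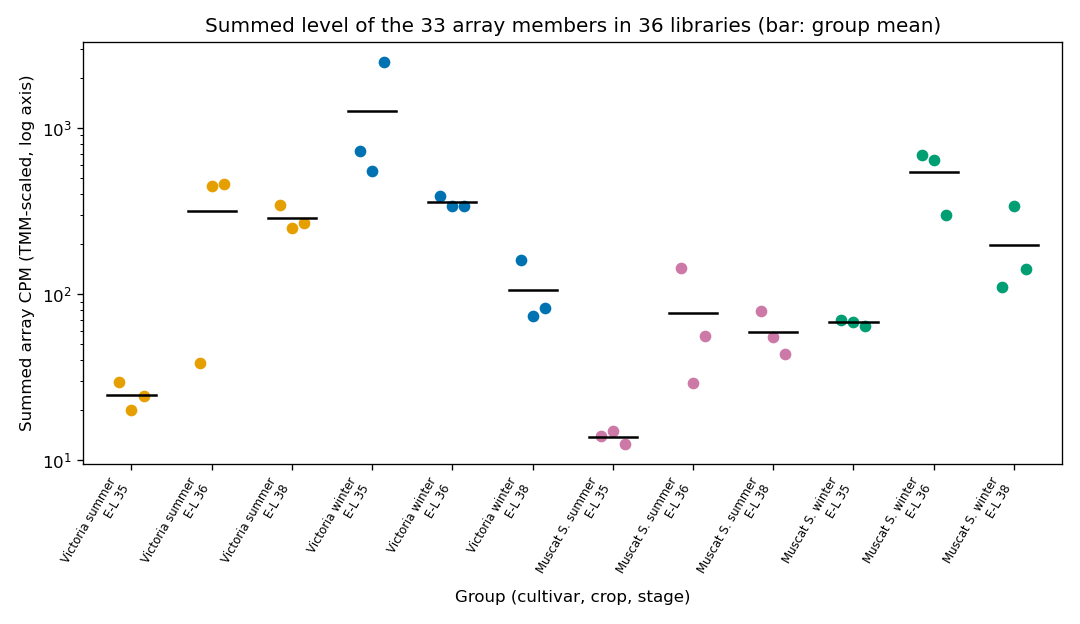
Summed CPM of the 33 array members (log axis) in each library, by group; points are replicates, coloured by cultivar and crop, and bars are group means. The highest point is replicate 3 of Victoria winter E-L 35 at 2505 CPM, and replicate 1 of Victoria summer E-L 36 lies at 38.6 CPM, below its 2 companions.

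The first question was how the crop changed the array at a given stage. In Victoria at E-L 35 the summed array was 51.2-fold higher in winter than in summer, and the libraries of the crops did not overlap. All 30 tested copies rose (median log2 fold change 5.55), while 21.8% of the 19736 genes tested were called higher. VIT_216s0100g00910, the second most abundant copy, had 1.17, 1.21 and 1.33 FPKM (fragments per kilobase, scaled to library size) in summer and 52.6, 50.8 and 187.8 FPKM in winter. It had the lowest p of the array here, at a log2 fold change of 6.45 ± 0.74 (SE; edgeR adjusted p = 1.78e-07). The smallest rise was that of VIT_216s0100g01100, at 3.48 ± 0.85 (edgeR adjusted p = 0.00174, or 0.0961 without replicate 3 of the winter group). Without replicate 3 of the winter group the summed fold was 26.0, and leaving out any 1 library of the comparison still left 29 to 30 copies called.

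At E-L 36 the crops of Victoria overlapped, with 38.6, 449 and 458 CPM in summer and 389, 341 and 340 CPM in winter. Only VIT_216s0100g00750, the first gene of the array, rose, where 24.9% of all tested genes were called higher. It had 1.62, 14.9 and 14.3 FPKM in summer and 34.1, 32.4 and 32.8 FPKM in winter, so that all winter libraries were above all summer ones (log2 fold change 1.77 ± 0.54, edgeR adjusted p = 0.00773). The low summer library was the replicate 1 that correlates best with E-L 38: without it 6 copies were called, 5 of them lower in winter. Without replicate 2 of that group 2 copies were called. The winter libraries were near-identical, and summing them left 1 library.

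At harvest the direction in Victoria was the opposite of that at E-L 35. The summed array had 342, 251 and 267 CPM in summer and 160, 73.7 and 82.5 CPM in winter, 2.72-fold lower in winter and without overlap. Of the 30 copies 9 fell, a share near that of all genes called lower (27.8%), and the median log2 fold change was -1.41. The lowest p was that of VIT_216s0100g00990, with 21.3, 17.3 and 12.01 FPKM in summer against 4.49, 1.49 and 1.45 FPKM in winter (log2 fold change -2.83 ± 0.76, edgeR adjusted p = 0.00253). VIT_216s0100g01140, one of the least abundant tested copies, had the largest fall, at -4.25 ± 1.38 (edgeR adjusted p = 0.0108), and was listed at 0 in 2 of the 3 winter libraries. Without replicate 2 or without replicate 3 of the winter group, which are near-identical, 5 copies were called, and 4 when those 2 were summed.

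In Muscat Superior the array was higher in winter at every stage, by 4.89-fold at E-L 35, 7.06-fold at E-L 36 and 3.33-fold at E-L 38, and at each stage the libraries of the crops were apart. The fold at E-L 36 ran from 5.39 to 12.6 when 1 library was left out, the highest without summer replicate 1. At E-L 35 the winter sums were 70.1, 68.2 and 64.6 CPM. Of the 30 copies 5 rose, against 9.33% of all genes: VIT_216s0100g00770, VIT_216s0100g00810, VIT_216s0100g00910, VIT_216s0100g00940 and VIT_216s0100g01000. VIT_216s0100g00910 had 0.09, 0.44 and 0.38 FPKM in summer and 5.55, 4.45 and 3.96 FPKM in winter (log2 fold change 3.83 ± 0.97, edgeR adjusted p = 0.00642). VIT_216s0100g00810, VIT_216s0100g00840 and VIT_216s0100g01010 were at 0 in all 3 summer libraries, and no fold is given for them. The median log2 fold change over the 30 copies was 2.34, or 2.26 with those 3 set to the floor of 3 counts. The count fell to 2 or 3 whenever any 1 of the 6 libraries was left out. Summing the near-identical winter libraries left 1 library in that group.

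At E-L 36, 26 of the 30 Muscat Superior copies rose in winter, against 21.0% of all genes, with a median log2 fold change of 2.59. VIT_216s0100g01170, the last gene of the array and the most abundant copy, had 7.59, 1.67 and 2.59 FPKM in summer and 83.1, 81.5 and 27.7 FPKM in winter (log2 fold change 3.95 ± 0.69, edgeR adjusted p = 4.4e-05). Winter replicate 3 was the lowest of its group for 29 of the 30 copies but still lay above the summer libraries for this one. The count was 13 without summer replicate 2, 14 without summer replicate 3, 16 without winter replicate 1 and 13 with the near-identical winter libraries summed.

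At harvest 10 of the 30 Muscat Superior copies were called higher in winter, where 22.7% of all genes were. The winter sums were 110, 339 and 141 CPM and the summer sums 78.9, 55.1 and 43.5 CPM. VIT_216s0100g00750 had the lowest p, with 0.09, 0.34 and 0.51 FPKM in summer and 1.22, 5.39 and 1.81 FPKM in winter (log2 fold change 3.23 ± 0.92, edgeR adjusted p = 0.00553). Winter replicate 2 was the highest of its group for 26 copies, and without it 0 copies were called by edgeR, although the summed array was still 2.12-fold higher. The adjusted p of VIT_216s0100g00750 was then 0.0797. The count was 5 without summer replicate 2, 4 without summer replicate 3 and 6 with near-identical libraries summed.

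**Figure D2:**
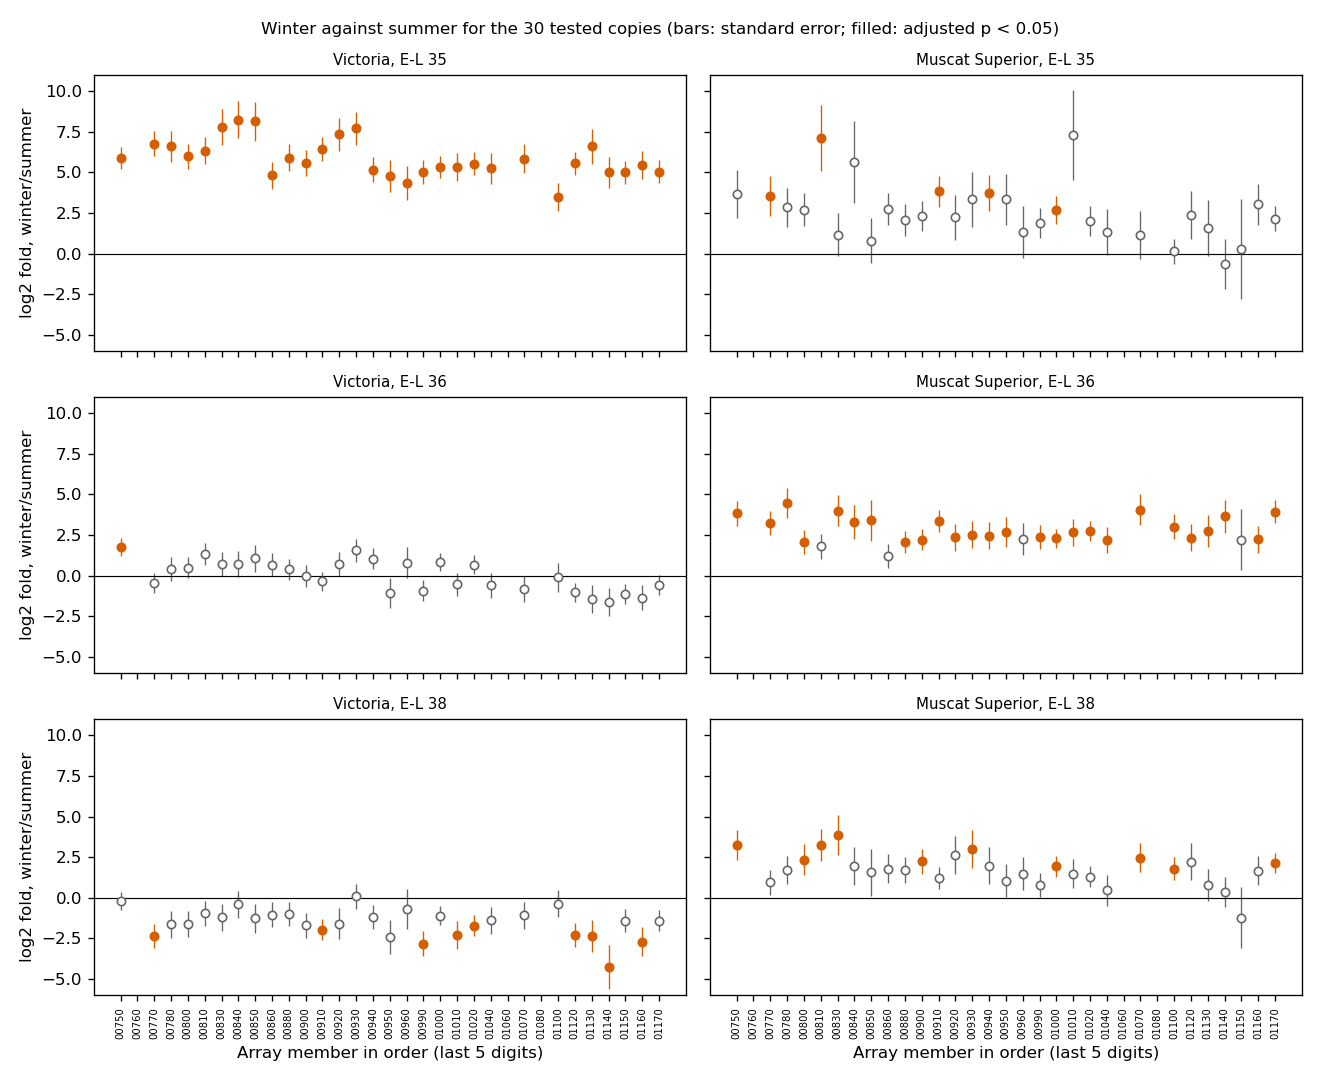
Log2 fold change of winter over summer (edgeR, bars are SE) for each tested copy in array order, in 6 panels by cultivar and stage; filled points have an adjusted p below 0.05. In Victoria all 30 points are above 0 at E-L 35 and 29 are below 0 at E-L 38, while in Muscat Superior 26 are filled at E-L 36. For 3 copies in Muscat Superior at E-L 35 all summer libraries were at 0, so their fitted folds are not measured sizes.

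The crop effect itself was compared between the cultivars in the same fit. At E-L 35 it was smaller in Muscat Superior than in Victoria for 4 copies, against 9.56% of all genes called in that direction, with the lowest p for VIT_216s0100g00850 (difference of log2 fold changes -7.33 ± 2.09, edgeR adjusted p = 0.0151, or up to 0.0591 without replicate 1 or replicate 2 of Muscat Superior summer E-L 35). That count, a share near that of all genes, ran from 0 to 7 over the leave-one-out fits. DESeq2 gave 18 and limma on log2(FPKM + 1) 26. The Muscat Superior winter libraries at E-L 35 were near-identical. At E-L 36 the effect was larger in Muscat Superior for 12 copies, against 9.23% of all genes, and at E-L 38 for 15 copies, against 8.17%. VIT_216s0100g01170 had the lowest p at both stages, with differences of 4.55 ± 0.92 (edgeR adjusted p = 0.000903) and 3.56 ± 0.90 (edgeR adjusted p = 0.00707). The counts ran from 5 to 20 and from 2 to 16 when 1 library was left out. The lowest came without Victoria summer E-L 36 replicate 2 and without Muscat Superior winter E-L 38 replicate 2. With near-identical libraries summed, the count at E-L 38 was 0. The Victoria winter libraries at E-L 36 were near-identical.

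The ripening steps gave opposite directions in the crops of Victoria. From E-L 35 to E-L 36 in summer the summed array rose 12.8-fold and 28 of 30 copies rose, against 21.3% of all genes. In winter it fell by a factor of 3.54 over the same step (1.80 without replicate 3 of E-L 35) and 18 of 30 copies fell, against 22.0% of all genes. VIT_216s0100g00910 changed by 4.37 ± 0.71 in summer (log2, edgeR adjusted p = 1.86e-05) and by -2.44 ± 0.59 in winter (edgeR adjusted p = 0.00152). VIT_216s0100g00770 had the lowest p of the winter step, with 18.3, 14.9 and 75.3 FPKM at E-L 35 and 6.0, 3.62 and 4.38 FPKM at E-L 36 (log2 fold change -2.83 ± 0.61, edgeR adjusted p = 0.000511). The difference between the steps passed the test for all 30 copies, each lower in winter, against 21.0% of all genes, and for 28 to 30 when 1 library was left out. The winter count was 8 without replicate 3 of E-L 35, the library with the highest array level. The winter libraries at E-L 36 were near-identical.

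From E-L 36 to E-L 38 in summer, 0 copies were called in Victoria by edgeR, none had an unadjusted p below 0.05, and 0.233% of all genes were called. Each of these groups holds a library that lies nearest to the other stage. Without those 2 libraries 1 copy was called. In winter the sum fell by a further factor of 3.38 and 8 copies fell, against 9.18% of all genes. VIT_216s0100g01020 had the lowest p, falling from 19.05, 14.96 and 16.04 FPKM to 5.71, 2.44 and 2.72 FPKM (log2 fold change -2.29 ± 0.64, edgeR adjusted p = 0.0127, or up to 0.0595 without replicate 2 or replicate 3 of E-L 38). Leaving out any 1 library of that step gave 0 to 5 copies, the 0 without E-L 38 replicate 2. The winter libraries at E-L 36, and replicates 2 and 3 of E-L 38, were near-identical.

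In Muscat Superior the first step was a rise in both crops. In summer the sums at E-L 36 were 144, 29.4 and 56.2 CPM, a 5.54-fold rise (3.09-fold without replicate 1 of E-L 36). There 9 copies rose, against 23.0% of all genes called in either direction, rises and falls together. The lowest p was that of VIT_216s0100g01000, with 0.73, 0 and 0.36 FPKM at E-L 35 and 6.91, 1.16 and 2.90 FPKM at E-L 36 (log2 fold change 3.44 ± 0.84, edgeR adjusted p = 0.00359). Without replicate 1 of E-L 36, the library nearest to E-L 38, 0 copies were called, and the adjusted p of VIT_216s0100g01000 was 0.065. Without replicate 1 of E-L 35 the count was 4, and DESeq2 called 19.

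In winter the sum rose 7.99-fold from E-L 35 to E-L 36 and 25 copies rose, against 17.8% of all genes. VIT_216s0100g01020 rose from 2.19, 2.41 and 1.56 FPKM to 43.9, 40.3 and 18.9 FPKM (log2 fold change 4.11 ± 0.68, edgeR adjusted p = 3.15e-05). The groups were well apart for it, but the E-L 35 libraries were near-identical, as were replicates 1 and 2 of E-L 36. The difference of this step between the crops was called for 0 copies by edgeR (2 with an unadjusted p below 0.05), against 22.5% of all genes, for 2 by DESeq2 and for 4 by limma.

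From E-L 36 to harvest in Muscat Superior, 0 copies were called in summer by edgeR (0 with an unadjusted p below 0.05), against 2.59% of all genes. In winter the summed array was 2.75-fold lower at harvest, but the libraries of the stages overlapped, and the factor was 4.30 without E-L 38 replicate 2. There 5 copies fell, a share near that of all genes called lower (13.1%), and 0 with near-identical libraries summed. VIT_216s0100g01020 again had the lowest p (log2 fold change -2.12 ± 0.58, edgeR adjusted p = 0.0085, or 0.052 without E-L 38 replicate 1). The winter count was 12 without E-L 38 replicate 2, 9 without E-L 36 replicate 3, 2 without either of the other E-L 36 libraries, 0 without E-L 38 replicate 1 and 1 without E-L 38 replicate 3.

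Between the cultivars, Muscat Superior was the lower in 4 of the 6 crop and stage combinations by summed array. The gap was widest in winter at E-L 35, where the sum was 18.7-fold lower than in Victoria (9.48-fold without Victoria replicate 3) and 29 of 30 copies were lower, against 15.3% of all genes. In summer at E-L 38 the sum was 4.84-fold lower and 23 copies were lower, against 20.9% of all genes (15 without Victoria replicate 1 and 13 without Muscat Superior replicate 3). In summer at E-L 36, 16 copies were lower, against 19.2%, but the libraries overlapped, and the count ran from 6 without Victoria replicate 3 to 24 without Victoria replicate 1. In summer at E-L 35, 3 copies were lower and 1 higher, against 44.6% of all genes called in either direction, and 1 to 3 were called when 1 library was left out.

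In winter at E-L 36 and E-L 38 the sums of the cultivars overlapped and copies went both ways. At E-L 36, 5 copies were higher and 2 lower in Muscat Superior, against 35.0% of all genes called, and at E-L 38, 2 were higher and 2 lower, against 27.9%. The 2 lower were the same at both stages, VIT_216s0100g00750 and VIT_216s0100g01150, and VIT_216s0100g01100 and VIT_216s0100g01170 were higher at both, and each of these 4 calls at E-L 38 was lost in at least 2 of the fits that left out 1 library. The counts were 4 to 7 and 1 to 4 when 1 library was left out, and that at E-L 38 was 1 with near-identical libraries summed. The Victoria libraries at E-L 36 were near-identical.

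By their apportioned estimates, single copies differed between the cultivars beyond the level of the array. The copies VIT_216s0100g00750, VIT_216s0100g01100, VIT_216s0100g01150 and VIT_216s0100g01170 had a whole-number count in 0 libraries. Whether reads were divided differently in the 2 cultivars was not tested. VIT_216s0100g01150 was near 0 in Muscat Superior: its highest value over the 18 libraries was 0.32 FPKM, and in winter at E-L 35 it had 0, 0.06 and 0 FPKM. In Victoria it had 12.3, 10.1 and 42.1 FPKM in that group, and it was called lower in Muscat Superior in all 6 cultivar comparisons, with the lowest p in winter at E-L 35 (log2 fold change -9.55 ± 1.16, edgeR adjusted p = 4.77e-07). The call in winter at E-L 38 was lost without Victoria replicate 3 or Muscat Superior replicate 2 (edgeR adjusted p up to 0.0531).

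VIT_216s0100g00750 was likewise called lower in Muscat Superior in all 6 comparisons, but the call was lost in summer at E-L 35 without any library except Victoria replicate 2 (edgeR adjusted p up to 0.132) and in winter at E-L 38 without any except Muscat Superior replicate 2 (up to 0.136). In winter at E-L 36 it had 34.1, 32.4 and 32.8 FPKM in Victoria against 10.6, 10.5 and 5.2 FPKM in Muscat Superior (log2 fold change -1.90 ± 0.54, edgeR adjusted p = 0.00739). It took 13.5%, 14.7% and 14.7% of the array FPKM of the Victoria libraries in that group. In Victoria its share was 4.90% to 5.60% in winter at E-L 35 and 9.97%, 22.2% and 15.6% in winter at E-L 38. Over the 18 Muscat Superior libraries it never took more than 3.14%.

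At the other end of the array, VIT_216s0100g01170 was the leading copy of every Muscat Superior group except summer E-L 36. By group mean it took 13.2%, 18.4% and 26.3% in winter at E-L 35, E-L 36 and E-L 38, and 15.6% and 19.3% in summer at E-L 35 and E-L 38. In Victoria it led only in summer at E-L 35, at 12.2%. In winter at harvest it had 12.9, 62.3 and 22.7 FPKM in Muscat Superior, or 19.0%, 28.8% and 25.8% of the array, against 12.3%, 7.53% and 9.20% in Victoria. It was higher in Muscat Superior in winter at harvest (log2 fold change 2.31 ± 0.64, edgeR adjusted p = 0.00799) and in winter at E-L 36 (2.47 ± 0.62, edgeR adjusted p = 0.00274), and lower in winter at E-L 35 (-3.47 ± 0.66, edgeR adjusted p = 0.000211). The call at harvest was lost without replicate 2 of either cultivar (edgeR adjusted p up to 0.117) and with near-identical libraries summed (edgeR adjusted p = 0.0833). The calls at E-L 36 and E-L 35 each use a group of near-identical libraries.

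VIT_216s0100g01100 was the only tested copy whose highest library was not Victoria winter E-L 35 replicate 3 but Muscat Superior winter E-L 38 replicate 2, at 12.01 FPKM. In summer at E-L 35, where the array was lowest, it had 1.36, 1.33 and 1.13 FPKM in Muscat Superior and 0.07, 0.32 and 0.65 FPKM in Victoria (log2 fold change 2.17 ± 0.87, edgeR adjusted p = 0.0434). That call was lost without any 1 of the 6 libraries except Victoria replicate 3 (edgeR adjusted p up to 0.152). It then took 14.7%, 14.3% and 14.1% of the Muscat Superior array, against 0.27% to 3.30% in Victoria.

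**Figure D3:**
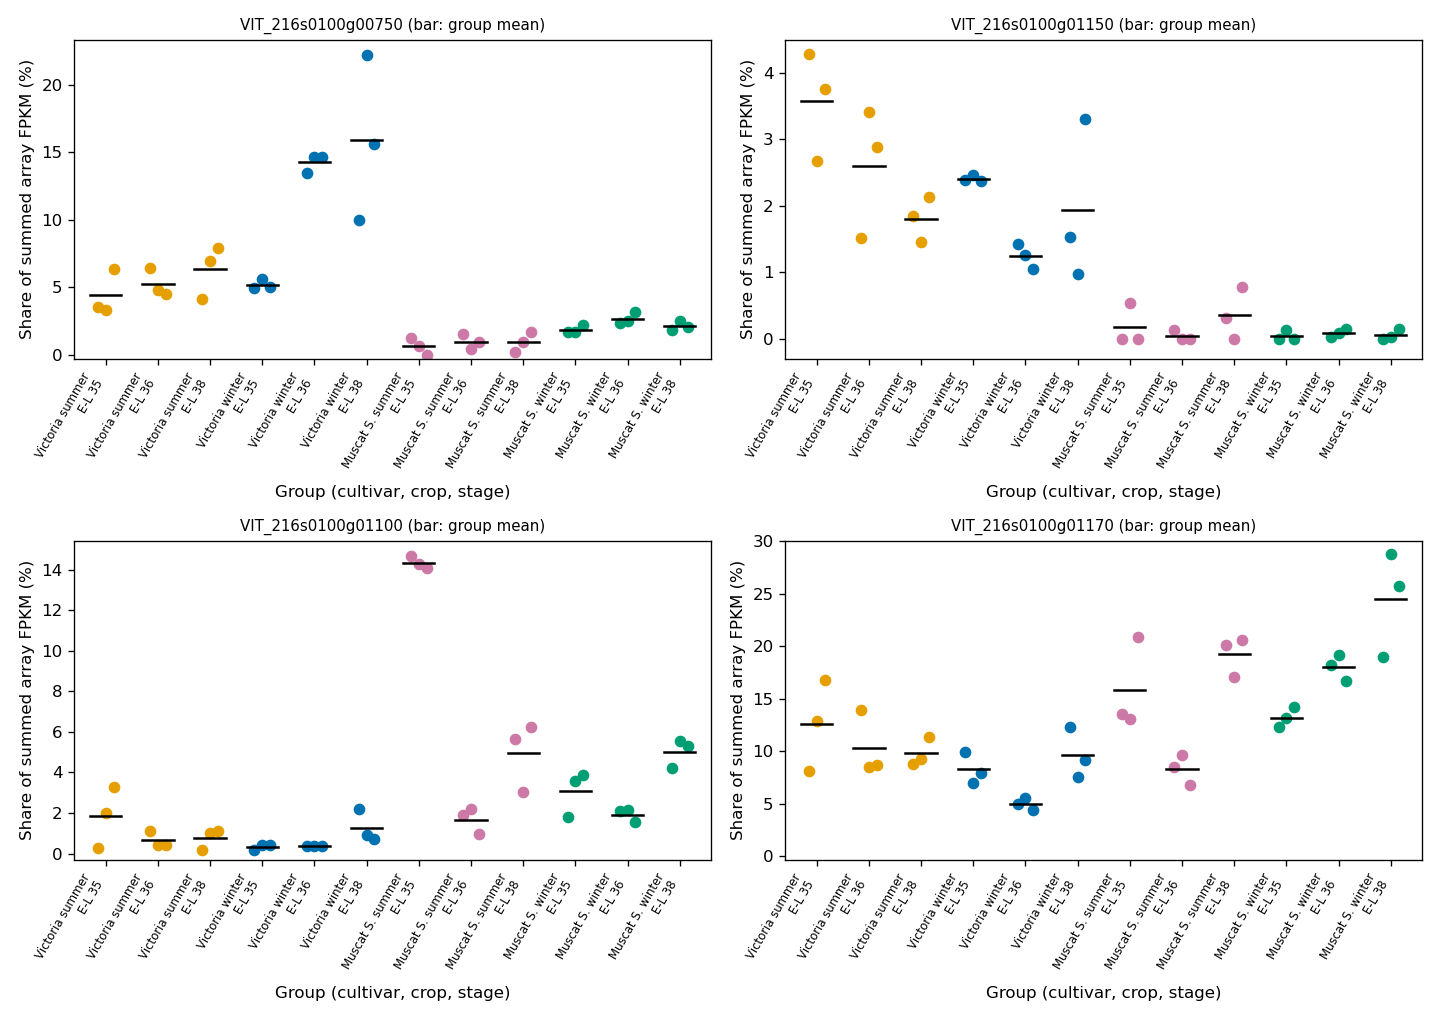
Share of the summed array FPKM (%) taken by 4 copies in each library, by group; points are replicates and bars group means. In Victoria winter VIT_216s0100g00750 takes 13.5% to 14.7% at E-L 36 and 9.97% to 22.2% at E-L 38. It stays at or below 3.14% in Muscat Superior, and VIT_216s0100g01170 reaches 28.8% in Muscat Superior winter E-L 38.

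Over all libraries the 5 most abundant copies by mean FPKM were VIT_216s0100g01170 (20.8), VIT_216s0100g00910 (17.0), VIT_216s0100g00990 (11.7), VIT_216s0100g01020 (11.6) and VIT_216s0100g00750 (10.4). The least abundant tested copies were VIT_216s0100g01040 (1.09 FPKM) and VIT_216s0100g01140 (1.86 FPKM). The 10 leading copies of a group carried 56.2% to 72.7% of its array FPKM.

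Along the array, the members were divided by order into 3 equal runs of 11, the first, the middle and the last. The middle run took 35.0% to 52.5% of the FPKM of a group. The last run took 12.4% ± 0.2 (SD, n = 3) in Victoria winter E-L 36 and 40.5% ± 5.2 in Muscat Superior summer E-L 35, its lowest and highest group. The first run took 41.7% ± 2.3 in Victoria winter E-L 36 and 17.2% ± 1.8 in Muscat Superior summer E-L 38. The order of the 30 tested copies by mean FPKM was compared between groups as a description: Spearman's rho had a median of 0.74 (0.52 to 0.93) over 30 pairs of groups of the same cultivar and 0.56 (0.23 to 0.70) over 36 pairs of different cultivars. The pairs share groups, and apportioned reads link the copies.

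**Figure D4:**
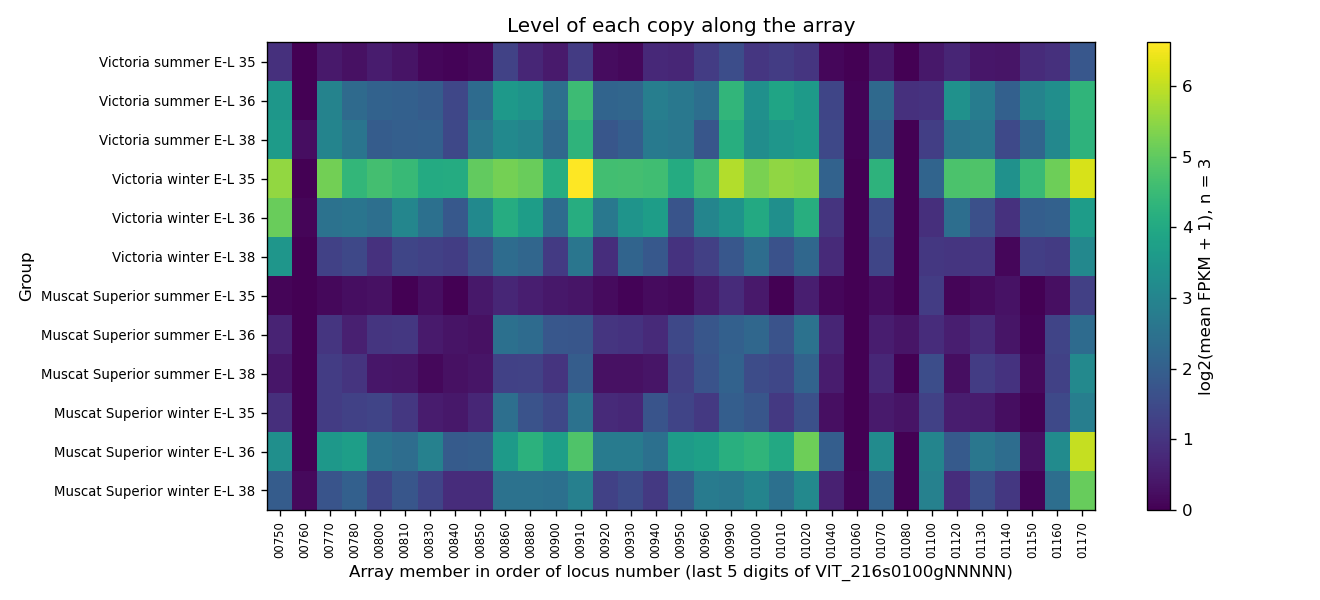
Mean level of each member, as log2(mean FPKM + 1) of 3 replicates, with members in array order along the x axis and the 12 groups along the y axis. VIT_216s0100g01150 is dark in all 6 Muscat Superior groups, and the row of Victoria winter E-L 35 is the brightest.

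Of 20 genes flanking the array, 10 on each side, 19 were tested. In Victoria 4 of them were higher and 5 lower in winter at E-L 35, 7 and 5 at E-L 36, and 4 and 4 at E-L 38, with median log2 fold changes of 0.08, 0.06 and 0.07. All genes tested gave 21.8% higher and 20.3% lower, 24.9% and 25.9%, and 26.5% and 27.8% at those stages. In Muscat Superior 2 flanking genes were higher and 2 lower at E-L 35, 5 and 4 at E-L 36, and 7 and 5 at E-L 38, with medians of 0.17, 0.04 and 0.67, against 9.33% and 8.25%, 21.0% and 21.6%, and 22.7% and 22.4% of all genes. With 1 library left out, the count of called flanking genes fell to 6 in Victoria at E-L 35, to 8 at E-L 36 and to 1 in Muscat Superior at E-L 35. The first of these counts came without summer replicate 1 or 2 or winter replicate 1 or 3, the second without winter replicate 3 and the last without summer replicate 1 or winter replicate 2.

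VIT_216s0100g00700, a flanking gene chosen after its values were seen, rose at harvest in both cultivars. In Victoria it had 0.24, 0.21 and 0.25 FPKM in summer and 16.3, 6.59 and 9.37 FPKM in winter (log2 fold change 5.41 ± 0.51, edgeR adjusted p = 7.99e-10), where the summed array was lower. In Muscat Superior it had 0.61, 0.53 and 1.08 FPKM in summer and 21.0, 11.2 and 32.0 FPKM in winter (4.87 ± 0.42, edgeR adjusted p = 3.74e-10). Its crops did not overlap in either cultivar. It was also higher in winter at E-L 36, by 4.15 ± 0.58 in Victoria (edgeR adjusted p = 1.06e-06) and 3.25 ± 0.62 in Muscat Superior (edgeR adjusted p = 0.000117).

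VIT_216s0100g00740, the nearest on the lower side, had 15.4, 10.3 and 11.5 FPKM in summer and 51.7, 30.9 and 38.6 FPKM in winter in Victoria at E-L 35 (log2 fold change 1.87 ± 0.28, edgeR adjusted p = 7.33e-06). Unlike the array sum, it was also higher in winter in Victoria at E-L 38, at 1.43 ± 0.30 (edgeR adjusted p = 0.000236). In Muscat Superior it was higher in winter at E-L 36 (1.73 ± 0.52, edgeR adjusted p = 0.00849) and E-L 38 (3.21 ± 0.45, edgeR adjusted p = 1.35e-06), and it was lower than in Victoria in all 6 cultivar comparisons, by -3.97 to -1.85 on the log2 scale. VIT_216s0100g01210, the nearest on the upper side, fell in winter at E-L 38 in Victoria (-0.98 ± 0.33, edgeR adjusted p = 0.0139) and Muscat Superior (-1.11 ± 0.34, edgeR adjusted p = 0.00863). The fall in Victoria was not called without summer replicate 3 or winter replicate 2 (edgeR adjusted p up to 0.107).

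Other loci of the pathway were taken from recalled lists, whose identity was not checked. Of 13 loci listed as phenylalanine ammonia-lyase, which opens the phenylpropanoid route, all 13 rose in winter in Victoria at E-L 35, against 21.8% of all genes, and in Muscat Superior at E-L 36, against 21.0%. In Muscat Superior 6 rose at E-L 35, against 9.33% of all genes, and 9 at E-L 38, against 22.7%. In Victoria 2 rose at E-L 36, where 24.9% of all genes did, and at E-L 38 2 rose and 2 fell, where 26.5% and 27.8% did. The Muscat Superior count at E-L 35 was 3 without summer replicate 3, and the winter libraries there were near-identical. With near-identical libraries summed, the Muscat Superior count at E-L 36 was 8. In Victoria 4 were called at E-L 36 without summer replicate 1, 2 of them lower. At E-L 38 neither fall was called without summer replicate 3, winter replicate 2 or winter replicate 3. Their summed level in Victoria winter E-L 35 was 341, 287 and 796 CPM, and within that group replicate 3 was the highest, as for the array. Muscat Superior winter E-L 36 had the highest group mean, 699 CPM against 475 CPM, and its replicate 1 reached 805 CPM. The most abundant of them, VIT_213s0019g04460, was not highest in Victoria winter E-L 35. It had 20.1, 14.1 and 13.2 CPM in that group, against 251, 246 and 168 CPM in Muscat Superior winter berries at E-L 36.

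A second stilbene synthase group is listed on chromosome 10. Whether reads were divided between this group and the array was not tested. Of its 9 tested loci 7 rose in winter in Victoria at E-L 35 (all genes 21.8%) and 7 in Muscat Superior at E-L 36 (21.0%), 6 in Muscat Superior at E-L 38 (22.7%), and 1 each in Victoria at E-L 36 (24.9%) and Muscat Superior at E-L 35 (9.33%). In Victoria at E-L 38, edgeR called 0 of the 9 in either direction, and 0 had an unadjusted p below 0.05. Both counts of 1 use a winter group of near-identical libraries. The count in Victoria at E-L 36 was 0 without summer replicate 1, winter replicate 1 or winter replicate 3, and that in Muscat Superior at E-L 35 without any 1 of the summer replicates. Its leading locus, VIT_210s0042g00870, had 1.20, 0.366 and 0.343 CPM in summer and 20.8, 26.8 and 79.3 CPM in winter in Victoria at E-L 35 (log2 fold change 6.05 ± 0.78, edgeR adjusted p = 1.04e-06). The loci listed as cinnamate 4-hydroxylase, the next step after the ammonia-lyase, rose in 3 of 3 cases in Victoria at E-L 35 (all genes 21.8%) and Muscat Superior at E-L 36 (21.0%). In Muscat Superior 1 rose at E-L 35 (9.33%) and 1 at E-L 38 (22.7%), and edgeR called 0 in Victoria at E-L 36. VIT_206s0004g08150, the leading one, was the 1 called in Victoria at E-L 38, where it fell and 27.8% of all genes did (-0.69 ± 0.27, edgeR adjusted p = 0.029, or up to 0.154 without summer replicate 3, winter replicate 2 or winter replicate 3).

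The 2 tested loci listed as chalcone synthase, which competes for the same substrates, differed from the array at harvest in Victoria. VIT_214s0068g00920 had 22.5, 38.4 and 35.6 CPM in summer and 153, 129 and 134 CPM in winter (log2 fold change 2.11 ± 0.34, edgeR adjusted p = 8.1e-06). VIT_205s0136g00260 was also higher there (1.52 ± 0.48, edgeR adjusted p = 0.00898, or 0.0595 without summer replicate 2). That was the comparison where 9 array copies fell, and 26.5% of all genes were called higher there and 27.8% lower. Like the array sum, both loci were higher in winter in Victoria at E-L 35 (21.8% of all genes). The same held in Muscat Superior at E-L 35 (9.33%), E-L 36 (21.0%) and E-L 38 (22.7%). In Victoria at E-L 36, 1 of the 2 was higher (24.9%).

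Of the listed regulators, VIT_207s0005g03340 is recalled as MYB14 and VIT_205s0049g01020 as MYB15, both known in grapevine as activators of stilbene synthase genes, and VIT_201s0010g03930 as WRKY03. The MYB14 locus had 0.568, 1.21 and 0.537 CPM in summer and 22.8, 23.5 and 9.35 CPM in winter in Muscat Superior at E-L 36 (log2 fold change 4.55 ± 0.59, edgeR adjusted p = 4.98e-07). In Victoria at E-L 35, where the array was highest, its winter values were 0.703, 3.69 and 5.47 CPM, above summer values of 0.497, 0.499 and 0.543 CPM (2.62 ± 0.60, edgeR adjusted p = 0.000956). The MYB15 locus rose in the same comparisons, by 2.20 ± 0.28 (edgeR adjusted p = 5.6e-07) and 0.80 ± 0.27 (edgeR adjusted p = 0.0199), and the WRKY03 locus by 1.65 ± 0.30 (edgeR adjusted p = 5.76e-05) and 1.08 ± 0.29 (edgeR adjusted p = 0.00383). In Victoria the MYB15 call was lost without summer replicate 2, summer replicate 3 or winter replicate 3 (edgeR adjusted p up to 0.239) and the WRKY03 call without winter replicate 3 (edgeR adjusted p = 0.137). Of the 3 loci, edgeR called 3 higher in Muscat Superior at E-L 38 (22.7% of all genes) and 1 at E-L 35 (9.33%). In Victoria it called 1 higher at E-L 36 (24.9%) and 0 at E-L 38. The count of 3 at E-L 38 fell to 1 without summer replicate 2, summer replicate 3 or winter replicate 1. The count at E-L 35 in Muscat Superior fell to 0 without replicate 1 or replicate 3 of either crop.

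Of 19706 tested genes outside the array, those most like it over the 12 group means (Pearson's r of log2(CPM + 1) with the array sum, as a description) were VIT_216s0039g01130 (0.948), VIT_216s0039g01100 (0.945), VIT_202s0025g02920 (0.937), VIT_210s0042g00850 (0.937) and VIT_207s0005g04880 (0.937). The first and second are in the ammonia-lyase list and the fourth in the chromosome 10 list. The array's own copies had r from 0.469 to 0.991 with a median of 0.935. Among the regulators the WRKY03 locus ranked 26 (r = 0.871), the MYB15 locus 947 (0.553) and the MYB14 locus 1873 (0.455).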

How the data were processed

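RNA-seq of deseeded grape berry pericarp was analysed in 36 libraries. Per the file headers, the authors deposited for each library an expected count (estimated reads per gene, fractional where reads are shared) and an FPKM per gene. Bowtie is named without a version, per the submitters' processing notes. For build, gene models and counter the entry is: not given in the sources used here. A gene with no line in a table was entered as 0. Expected counts were rounded and tested with edgeR 4.0.16 under R 4.3.3 (robust quasi-likelihood, TMM, filterByExpr) in a means model of 12 groups, with Benjamini-Hochberg adjustment over 19736 genes and calls at an adjusted p below 0.05; all 25 comparisons came from that fit (24 residual degrees of freedom, common biological coefficient of variation 0.172, factors 0.851 to 1.202). The method was tested on simulated data. P-values rest on the spread between replicates, estimated for each gene over the 12 groups together. They do not rest on the 3 replicates of the compared groups alone, so a group with a wide spread was tested with the shared estimate.

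The members, the pathway lists and the comparisons were chosen with earlier results of these data known. Named copies were the first and last of the array, the 5 most and 2 least abundant tested copies, and the called copy with the lowest p in each direction of a comparison; other copies are named where they make up a count or show a value of 0. Intervals for depth cover counting error only: 3 counts correspond to 0.161 to 0.533 CPM. Alternatives were DESeq2 1.42.0, limma 3.58.1 on log2(FPKM + 1), no TMM, no filter, a replicate block, near-identical libraries summed and each library left out. No sequence is shown.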

Additional observations from a re-analysis of the deposited data

Results flagged for a closer look

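The crop effect of the array differed between Victoria and Muscat Superior by the test of the difference itself (edgeR interaction) for 4 copies at E-L 35, where it was larger in Victoria, and for 12 copies at E-L 36 and 15 at E-L 38, where it was larger in Muscat Superior. Of all genes tested, 9.56%, 9.23% and 8.17% were called in those directions. The count at E-L 35 was a share near that of all genes. The 3 counts ran from 0 to 7, from 5 to 20 and from 2 to 16 when 1 library was left out. The step from E-L 35 to E-L 36 in Victoria differed between the crops for 30 of 30 copies, against 21.0% of all genes called in that direction, rising in summer and falling in winter by the fitted values. With near-identical libraries summed, the count for the crop effect at E-L 38 was 0. The counts at E-L 35 and E-L 36 and the step in Victoria each use a winter group of near-identical libraries.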

How the results depend on the processing

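The counts of called copies in the 25 comparisons stayed within a factor of 1.5 without TMM factors and with the replicate block, under which for example 30 copies were called for the crop effect in Victoria at E-L 35. Same-numbered samples deviated together in 1 of 66 group pairs (median correlation -0.005), so the numbers were not taken to pair the samples. The 15 counts that moved when near-identical libraries were summed leave fewer libraries in the fit.

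DESeq2 moved 5 counts: 18 for the crop effect in Muscat Superior at E-L 35, 19 for its summer step to E-L 36, 7 for the cultivars in summer at E-L 35, 18 for the difference in crop effect at E-L 35 and 2 for the difference of steps in Muscat Superior. Without the filter these were 3 for the crop effect in Muscat Superior at E-L 35, 4 for the Victoria winter step to E-L 38, 1 and 4 for the cultivars in summer at E-L 35 and winter at E-L 36, and 2 for the difference at E-L 35. Limma gave 4 for the crop effect in Victoria at E-L 36, 2 and 6 in Muscat Superior at E-L 35 and E-L 38, 3 and 11 for its summer step to E-L 36 and winter step to E-L 38, 0 for the cultivars in summer at E-L 35, 26 for the difference at E-L 35 and 4 for the difference of steps in Muscat Superior. The causes were not tested.

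With near-identical libraries summed, the crop effect gave 4 in Victoria at E-L 38 and 13 and 6 in Muscat Superior at E-L 36 and E-L 38. The winter step to E-L 38 gave 0 in Muscat Superior. The cultivars gave 1 in summer at E-L 35 and 1 in winter at E-L 38, and the difference in crop effect at E-L 38 gave 0. Leaving out replicate 1 of Victoria summer E-L 36 and of E-L 38 together, chosen after seeing the data, gave 7 for the crop effect in Victoria at E-L 36, 11 in Muscat Superior at E-L 35, 1 for the Victoria summer step to E-L 38, 15 and 15 for the winter steps to E-L 38, 25 for the cultivars in summer at E-L 36, 9 and 20 for the differences at E-L 35 and E-L 36 and 1 for the difference of steps in Muscat Superior.

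With 1 library left out, the crop effect ranged over 1 to 6 and 5 to 12 copies in Victoria at E-L 36 and E-L 38, and 2 to 3, 13 to 27 and 0 to 10 in Muscat Superior at E-L 35, E-L 36 and E-L 38. The steps ranged over 8 to 24 and 0 to 5 in Victoria in winter, 0 to 11 in Muscat Superior in summer to E-L 36 and 0 to 12 in winter to E-L 38. The cultivars ranged over 1 to 3, 6 to 24 and 13 to 21 in summer and 4 to 7 and 1 to 4 in winter at E-L 36 and E-L 38. The differences in crop effect ranged over 0 to 7, 5 to 20 and 2 to 16, and the difference of steps in Muscat Superior over 0 to 1. The summed folds of winter over summer ranged over 26.0 to 65.5, 0.786 to 1.46 and 0.273 to 0.424 in Victoria and 4.66 to 5.12, 5.39 to 12.6 and 2.12 to 4.06 in Muscat Superior. From the 10 most abundant copies the Muscat Superior fold at E-L 35 was 5.94 in place of 4.89.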
